A study of Mus musculus with 4 samples.

Results

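The interferon regulatory factors are a family of transcription factors, and 8 of their genes, Irf1, Irf2, Irf3, Irf4, Irf5, Irf7, Irf8 and Irf9, are described here in mouse bone marrow neutrophils. All probe sets whose annotated symbol equals one of these names were taken, which gave 14 probe sets for 8 of the 18193 genes named on the array. The LPS-treated knockout group was miR-125a-/- and received lipopolysaccharide (LPS), the Gram-negative cell wall component sensed by Toll-like receptor 4, for 3 h, and the unstimulated knockout group was miR-125a-/- without LPS. The LPS-treated wild-type group was miR-125a+/+ with the same exposure, and the unstimulated wild-type group was miR-125a+/+ without LPS. The labels give C57BL/6 mice of 8 weeks for all groups, and the cells were enriched with magnetic beads. The sources used here give neither the way the microRNA gene was deleted nor the dose of LPS. RNA of 3 experiments was pooled for each group and hybridised to 1 Affymetrix array, so every difference rests on a single array per side. With no replicate within a group, no p-value, standard deviation or test of a difference is given, and the number of arrays limits their precision. One label calls the unstimulated cells 0 h and another calls them cells without LPS, so time in culture and LPS cannot be told apart.

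All members of the family bind DNA through a related N-terminal domain that recognises GAAA-type sequences. IRF3, IRF5 and IRF7 lie idle in the cytoplasm until kinases below pattern-recognition receptors phosphorylate them, after which they drive interferon and cytokine genes. IRF9 is part of the complex that type I interferon activates, IRF1 and IRF2 act largely as an activator and its antagonist, and IRF4 and IRF8 work with partner factors in leukocyte development. Loss of IRF8 in mice gives an excess of granulocytes.

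The microRNA that the knockout lacks is shown first, because it defines the genotypes, with its relative miR-125b beside it because Irf4 has been reported as a miR-125b target in mouse macrophages. Both sequences are from RefSeq, build GRCm38.p6, plus strand (chr17:17830817-17830840 for miR-125a-5p and chr16:77646279-77646300 for a copy of miR-125b-5p). The capitals mark the seed, bases 2 to 8, which was the same in both.
mmu-miR-125a-5p: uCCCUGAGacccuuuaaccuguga
mmu-miR-125b-5p: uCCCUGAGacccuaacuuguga
Neither microRNA was measured on these arrays.

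A signal is the deposited MAS5 value on a log2 scale, and a floor was set at 6.80, the 60th percentile of all probe sets, under which signals scatter widely. A gene was represented by its brightest probe set and was called higher or lower where 2 arrays differed at least 2-fold (log2 1). A difference with 1 side under the floor is a lower bound of its size. Of the 14 probe sets, 10 exceeded the floor on all 4 arrays, 3 on some arrays and 1, a second Irf4 probe set, on none. A signal depends on each probe set's own sequence, so levels were compared between arrays and not between genes. In these RNA pools fewer cells of a type and less RNA per cell cannot be told apart. As a yardstick of disagreement between probe sets, 3479 genes had several of them above the floor on all arrays. The LPS differences of probe sets of the same gene lay a median of 0.41 apart on the log2 scale in either genotype. That value holds no error between arrays or RNA pools, which 1 array a group cannot give.

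After LPS, Irf9, Irf5 and Irf7 were higher and Irf8 was lower in both genotypes, Irf1 passed 2-fold in wild-type cells alone, and Irf2 and Irf3 were higher by less than 2-fold. In knockout cells 3 of 8 genes were called higher, against 6.62% of the 9578 measured genes, and 1 of 8 lower, against 7.99%. In wild-type cells 4 of 8 were called higher, against 7.29% of 9507 genes, and 1 of 8 lower, against 9.69%. In both genotypes 3 of 8 were called higher, against 5.57% of the 9220 genes measured in both, and 1 of 8 lower, against 5.89%. The median log2 difference of the 8 genes was 0.80 in knockout cells, where that of all measured genes was -0.05, and 0.96 in wild-type cells, where that of all measured genes was -0.03. On deposited signals without a floor, 9 of the 14 probe sets were higher after LPS in both genotypes and the other 5 were lower in both. The genes came to attention with earlier results of these arrays known, so these counts are a description.

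**Figure D1:**
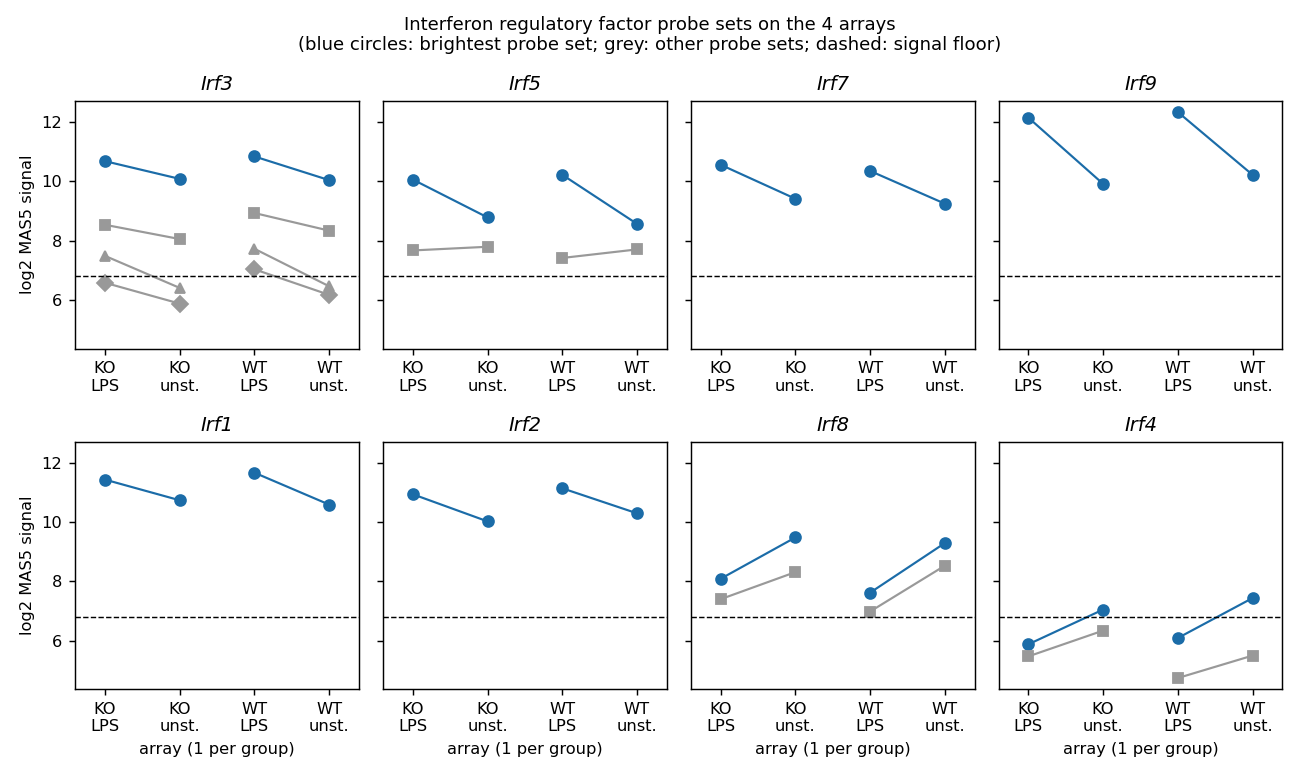
Log2 MAS5 signal (y axis) of every probe set of the 8 genes on the 4 arrays (x axis; LPS and unstimulated joined by a line within a genotype, unst. for unstimulated); blue circles are the brightest probe set and the dashed line is the floor of 6.80. Irf9 shows the steepest difference, the lines of Irf8 and Irf4 run the opposite way, and both Irf4 probe sets lie under the floor after LPS.

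Irf9, the DNA-binding subunit of the interferon-activated ISGF3 complex, had the highest LPS difference of the family. Its single probe set had log2 signals of 12.14 with LPS and 9.91 without in knockout cells, and of 12.33 with LPS and 10.21 without in wild-type cells. Both LPS arrays read above both unstimulated arrays. With 1 array a group this is no measure of spread, and how many of all genes do so was not counted. The fold difference was 4.70 in knockout cells and 4.33 in wild-type cells. Only 1.47% of measured genes in knockout cells and 1.79% in wild-type cells had a difference as high or higher. This call held in all 7 alternative scalings, floors and summaries that gave Irf9 a value, with log2 differences from 1.62 to 2.34 in knockout cells and from 1.55 to 2.36 in wild-type cells.

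Among the factors that are activated by phosphorylation, Irf5, which serves Toll-like receptors through the adaptor MyD88, differed most. Its brightest probe set had log2 signals of 10.05 with LPS and 8.78 without in knockout cells, and of 10.22 with LPS and 8.56 without in wild-type cells. This was 2.42-fold higher in knockout cells and 3.15-fold higher in wild-type cells. The 2 probe sets of Irf5 disagreed. The other read 7.66 with LPS and 7.79 without in knockout cells, and 7.41 with LPS and 7.70 without in wild-type cells, so its 4 arrays were nearly level and its LPS differences were -0.12 and -0.29. The gap of 1.40 in knockout cells and 1.94 in wild-type cells exceeded that of 90% of genes with several probe sets, for which it was at most 1.15 and 1.30. In the mean over both probe sets Irf5 stood at 0.58 and 0.68 and was not called, so its call rests on 1 probe set.

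Irf7, the factor that amplifies interferon production, had 1 probe set, with log2 signals of 10.55 with LPS and 9.41 without in knockout cells, and of 10.35 with LPS and 9.24 without in wild-type cells. The folds, 2.21 in knockout cells and 2.15 in wild-type cells, were close to each other. Irf3, which is made constantly and answers to the kinases TBK1 and IKKε, was not called on its brightest probe set. That set read 10.67 with LPS and 10.08 without in knockout cells, and 10.83 with LPS and 10.03 without in wild-type cells, differences of 0.60 and 0.80. Its 3 other probe sets pointed the same way on deposited signals. The second brightest differed by 0.48 in knockout cells and 0.59 in wild-type cells, the third by 1.08 and 1.26 from unstimulated signals under the floor, and the dimmest by 0.70 and 0.86 near or under it. The small shift of Irf3 was thus seen in all 4 of its probe sets, in a range of 0.48 to 1.26.

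Irf1, an activator induced by interferon gamma and NF-κB, and Irf2, its relative that can occupy the same sites, were both higher after LPS. Irf1 had log2 signals of 11.42 with LPS and 10.73 without in knockout cells, a 1.62-fold difference, and of 11.66 with LPS and 10.58 without in wild-type cells, a 2.11-fold difference. Only the wild-type value passed 2-fold, by a narrow margin, and the difference between the genotypes is taken up with the other responses. Irf2 read 10.93 with LPS and 10.02 without in knockout cells, and 11.13 with LPS and 10.29 without in wild-type cells. Its folds of 1.88 and 1.79 fell just short of the 2-fold call, and they passed it when arrays were scaled to a common median, where the differences were 1.02 and 1.09. Irf1 was the member nearest above the threshold in wild-type cells, and Irf2 the nearest below it in either genotype.

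Irf8, which favours monocyte and dendritic cell fates over granulocytes, was the member called lower. Its brightest probe set had log2 signals of 8.08 with LPS and 9.48 without in knockout cells, and of 7.61 with LPS and 9.29 without in wild-type cells, which is 2.62-fold lower and 3.18-fold lower. Only 3.49% of measured genes in knockout cells and 2.66% in wild-type cells had a difference as low or lower. The second probe set read 7.40 with LPS and 8.31 without in knockout cells, and 6.98 with LPS and 8.52 without in wild-type cells, so LPS arrays were the low ones again. That set was 1.88-fold lower in knockout cells, short of 2-fold, and 2.92-fold lower in wild-type cells. With the floor raised to the 75th percentile Irf8 became a bound of -0.93 in knockout cells and -0.74 in wild-type cells and was not called.

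Irf4, a factor of activated lymphocytes and of some macrophages and dendritic cells, was near the limit of measurement. Its brighter probe set read 5.88 with LPS and 7.05 without in knockout cells, and 6.09 with LPS and 7.43 without in wild-type cells. Both LPS arrays were under the floor, so it was lower by at least 1.19-fold in knockout cells and at least 1.56-fold in wild-type cells, and neither bound reached 2-fold. On deposited signals without a floor the differences were -1.17 and -1.35. The dimmer probe set stayed between 4.74 and 6.34, under the floor throughout.

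**Figure D2:**
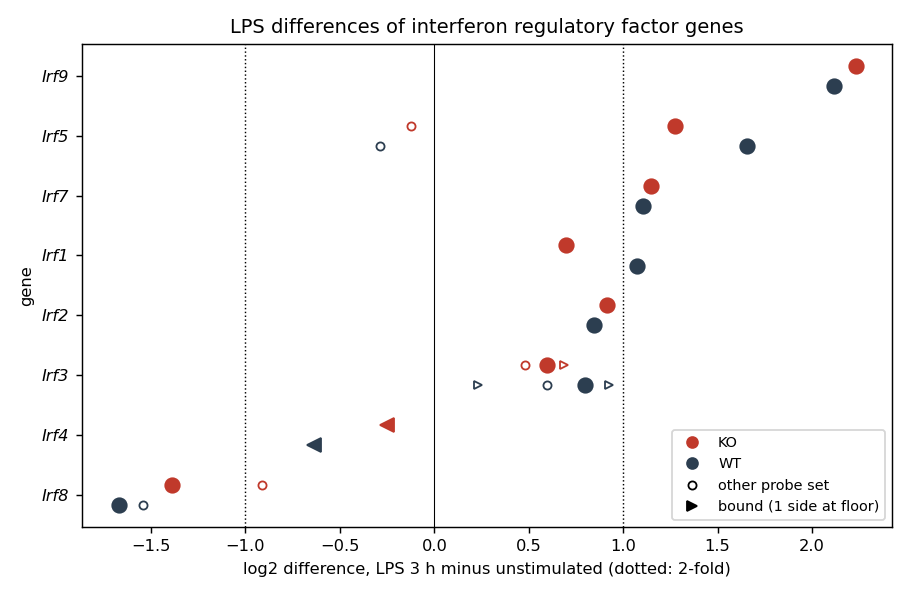
Log2 difference, LPS 3 h minus unstimulated (x axis), for each gene (y axis), in knockout cells (red, upper point) and wild-type cells (dark, lower point); filled symbols are the brightest probe set, open symbols other probe sets, triangles lower bounds and dotted lines 2-fold. Irf9 lies beyond 2 in both genotypes, Irf8 lies below -1 in both, and the open symbols of Irf5 near 0 show its second probe set.

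The scale of the arrays bears on these sizes. Each array had been scaled to the same trimmed mean, and the 24 poly-A spike-in probe sets averaged 9.25 with LPS and 8.64 without in knockout cells, and 9.29 with LPS and 8.72 without in wild-type cells. Scaling on these spike-ins moved the median LPS difference of all genes by -0.56 in knockout cells and by -0.51 in wild-type cells. On that scale Irf9 was still called higher, with 1.62 and 1.55, and Irf8 lower, by more than on the deposited scale, with -2.24 in wild-type cells. Irf7 stood at 0.54 in both genotypes and Irf1 at 0.09 in knockout and 0.51 in wild-type cells, not called. Irf5 stood at 0.67 and 1.09, the second of them called, and Irf3 turned to -0.01 in knockout cells with 0.23 in wild-type cells. Which scale reflects RNA per cell was not tested. On the deposited scale, counts over all genes were 634 higher and 765 lower in knockout cells, and 693 higher and 921 lower in wild-type cells. On the spike-in scale they were 314 and 2574 in knockout cells, and 340 and 2389 in wild-type cells. Quantile normalization gave 735 and 633 in knockout cells and 835 and 707 in wild-type cells, and median scaling 737 and 626 in knockout cells and 1030 and 620 in wild-type cells. Median scaling moved the wild-type median by 0.23.

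Between genotypes, no member was called. With LPS 0 of the 7 measured genes differed 2-fold between knockout and wild-type cells, against 1.24% of 9262 genes (0.615% higher and 0.626% lower). Without LPS it was 0 of 8, against 1.01% of 9401 genes (0.351% higher and 0.660% lower). The difference between the 2 LPS responses passed 2-fold in 0 of 8, against 2.17% of 9220 genes (1.27% higher and 0.900% lower). With so few calls among all genes, 0 of 8 is near the background and does not show that the factors were equal. The median size of the differences, sign ignored, was 0.20 for the members and 0.19 for all genes with LPS, and 0.20 and 0.16 without. Scaling tipped the balance of the few calls among all genes. With LPS the deposited scale gave 57 higher and 58 lower, quantile normalization 47 and 76, median scaling 37 and 108 and the spike-in scale 54 and 43. Without LPS it was 33 and 62, and 69 and 56 on the spike-in scale. Between the responses it was 117 and 83, and 88 and 109 by quantile normalization, 73 and 137 by median scaling and 89 and 98 on the spike-in scale.

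Irf8 had the highest genotype difference of the family with LPS. Its 2 probe sets stood 1.38-fold and 1.33-fold higher in LPS-treated knockout than in LPS-treated wild-type cells, with 13.2% of measured genes differing as much or more in either direction. Without LPS they pointed in opposite ways, 0.19 for the brighter and -0.22 for the dimmer, so no direction can be given for unstimulated cells. The LPS difference of Irf8 was smaller in size in knockout cells on both probe sets, by 0.28 and 0.63, and the second of these lay just inside the 95th percentile of all genes, 0.65. With the floor at the 75th percentile the first of them was -0.19.

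The other factors differed by less. With LPS, Irf1 stood at -0.23, Irf2 at -0.20, Irf9 at -0.19, Irf3 at -0.16 and Irf5 at -0.16 in knockout relative to wild-type cells, and Irf7 at 0.21. The second Irf5 probe set stood at 0.25, against the sign of the first. Under median scaling the median of all genes moved by -0.15 in this comparison. The 5 negative values stayed negative on all scales, between -0.39 and -0.31 under median scaling, -0.19 and -0.14 by quantile normalization and -0.19 and -0.12 on the spike-in scale. Without LPS, Irf9 stood at -0.30, Irf2 at -0.27 and Irf4 at -0.39, and Irf5, Irf7, Irf1 and Irf3 at 0.22, 0.17, 0.15 and 0.04. The Irf4 value came from 7.05 in knockout and 7.43 in wild-type cells, both near the floor, and its dimmer probe set, under the floor, read 6.34 in knockout and 5.50 in wild-type cells, the other way round. For Irf4 the arrays therefore give no single direction between genotypes.

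The LPS differences of Irf1 and Irf5 were each lower by 0.38 in knockout than in wild-type cells, a size that 27.2% of measured genes for Irf1 and 27.3% for Irf5 equalled or exceeded. The second Irf5 probe set gave 0.16. For Irf7 and Irf2 the responses were within 0.04 and 0.07 of each other, and for Irf9 within 0.12, and these 3 signs reversed under median scaling, that of Irf7 also on the spike-in scale. Irf3 stood at -0.20, and Irf4 at 0.39 with both LPS signals under the floor, so the Irf4 value only restates its difference without LPS. Irf1 thus passed 2-fold in 1 genotype and not in the other, while the difference between its 2 responses was of a common size and was not tested.

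**Figure D3:**
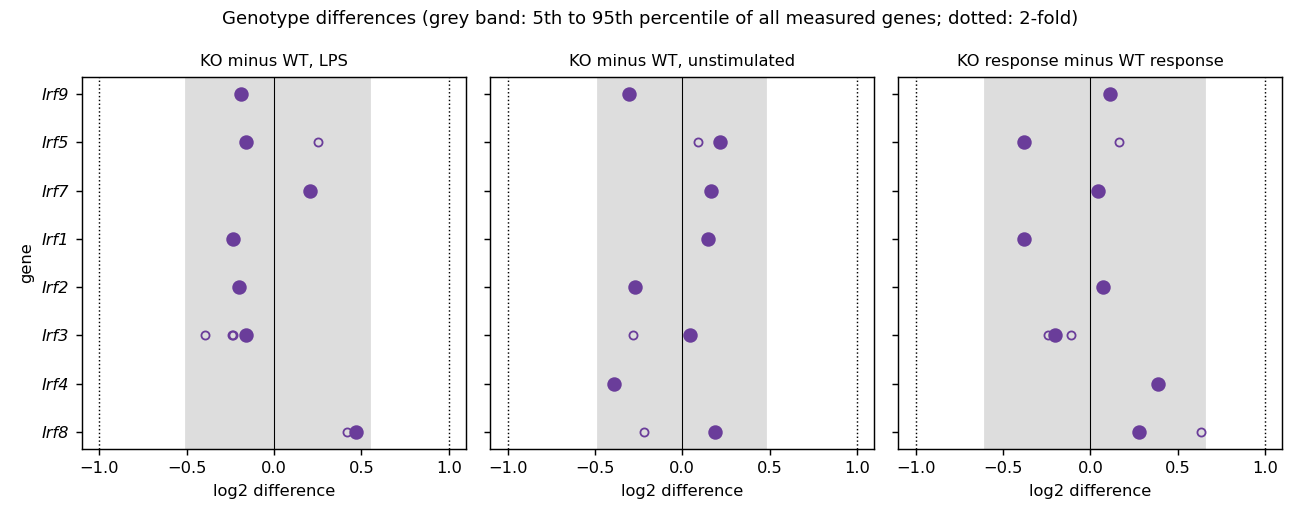
Log2 differences (x axis) of the 8 genes (y axis) between knockout and wild-type cells with LPS (left), without LPS (middle), and between the LPS responses of knockout and wild-type cells (right); filled circles are the brightest probe set, open circles others, values under the floor set to it, and the grey band runs from the 5th to the 95th percentile of all measured genes. All filled circles lie inside the band, which with LPS spans -0.50 to 0.55, and none reaches the dotted 2-fold lines.

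Promoter windows were read because several members differed together after LPS. For the 8 genes RefSeq (GRCm38.p6) gave 11 windows, several genes having more than 1 start site, and the 250 bases before each start were searched on both strands. The motifs were GAAA followed after any 2 bases by a second GAAA, the core of the interferon-stimulated response element (ISRE) that IRF proteins bind, TTCNNNGAA, the gamma-activated site (GAS) bound by STAT dimers, and the NF-κB site by name. Among all 32851 windows 2.98% held the ISRE core, 7.02% the GAS and 7.25% the NF-κB site. Of the 8 genes, Irf1, Irf2 and Irf8 held a match, and these 3 windows are shown because they are the ones with matches, in capitals. By window, as the shares above are, 1 of the 11 held the ISRE core, 3 the GAS and 2 the NF-κB site. The ISRE core was found in Irf2, the GAS in all 3 windows shown, and the NF-κB site in those of Irf1 and Irf2. All are on the plus strand, from chr11:53769764-53770013, chr8:46739495-46739744 and chr8:120736108-120736357.
Irf1: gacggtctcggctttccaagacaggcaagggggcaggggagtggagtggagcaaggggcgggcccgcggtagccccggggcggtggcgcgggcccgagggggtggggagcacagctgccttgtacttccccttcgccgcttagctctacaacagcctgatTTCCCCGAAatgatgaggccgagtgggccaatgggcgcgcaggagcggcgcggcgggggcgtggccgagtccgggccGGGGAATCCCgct
Irf2: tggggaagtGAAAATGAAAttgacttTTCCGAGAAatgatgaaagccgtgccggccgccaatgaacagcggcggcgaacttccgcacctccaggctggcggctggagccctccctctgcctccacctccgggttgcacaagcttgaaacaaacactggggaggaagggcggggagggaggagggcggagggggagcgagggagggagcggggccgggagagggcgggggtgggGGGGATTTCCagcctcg
Irf8: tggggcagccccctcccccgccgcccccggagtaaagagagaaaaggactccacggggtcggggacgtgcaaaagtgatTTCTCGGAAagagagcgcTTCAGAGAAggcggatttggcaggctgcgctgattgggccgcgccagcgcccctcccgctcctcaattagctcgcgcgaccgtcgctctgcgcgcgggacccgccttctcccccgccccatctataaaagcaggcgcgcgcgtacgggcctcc
In Irf1 the GAS began 90 bases and the NF-κB site 13 bases before the start, and in Irf2 the ISRE core began 241, the GAS 224 and the NF-κB site 17 bases before it. Irf8 held 2 GAS matches, which began 171 and 153 bases before its start. Irf1 and Irf2 were higher after LPS and Irf8 lower, so genes with a GAS match in this window lay on both sides. Irf9, Irf7, Irf5, Irf3 and Irf4 held none of these letters in their windows, which says nothing of sites elsewhere. A match is a description of sequence and not evidence of binding.

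The genes around the family were counted from 7 lists of activators, partners and targets, which were drawn up with earlier results of these arrays known. Of 124 genes on them outside the 8, 111 were matched and 97 measured in both genotypes, and 36 of these were higher and 3 lower after LPS in both, against 5.57% and 5.89% of all genes measured in both. Counts within 1 genotype are to be read against 6.62% higher and 7.99% lower in knockout cells, and 7.29% higher and 9.69% lower in wild-type cells. Several genes stand on more than 1 list.

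Of the sensors, adaptors and kinases that activate IRF3, IRF5 and IRF7, 6 of 18 were higher and 0 lower in knockout cells (median 0.53), and 5 of 17 higher and 0 lower in wild-type cells (median 0.49). These medians became -0.08 in each genotype on the spike-in scale. Ikbke, which encodes the inducible kinase IKKε, led with 4.40 in knockout and 4.48 in wild-type cells, while the related kinase gene Tbk1 had 0.60 and 0.48 and was not called. Cd14 and Ly96, co-receptor genes of Toll-like receptor 4, had 1.52 and 1.19 in knockout cells, with 1.32 for Cd14 in wild-type cells and Ly96 only just past 2-fold there. Ifih1 and Ddx58, sensors of viral RNA, had 1.47 and 1.05 in knockout cells and 1.29 and 1.14 in wild-type cells. Tank, which encodes a scaffold of TBK1, passed 2-fold in knockout cells alone (1.23, against 0.53 in wild-type cells), and its second probe set had 0.00 and 0.50. Myd88 had 0.74 and 0.66, and Slc15a4, an endolysosomal transporter that IRF5 signalling needs, 0.44 and 0.78.

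The relay from interferon to IRF9 had 4 of 10 genes higher and 0 lower in each genotype, with a median of 0.37 in knockout and 0.32 in wild-type cells, which turned to -0.07 and -0.23 on the spike-in scale. Tyk2 and Jak2, the receptor-bound kinases, had 1.82 and 1.40 in knockout cells and 2.32 and 1.28 in wild-type cells, but a second Jak2 probe set had 1.12 in knockout and 0.61 in wild-type cells, under 2-fold in wild-type cells. The receptor chains Ifnar1 and Ifngr2 had 1.38 and 2.05 in knockout cells and 1.68 and 1.92 in wild-type cells, but their second probe sets were lower, at 0.18 and 0.75 in knockout cells and 0.99 and 0.77 in wild-type cells. Stat2, the partner of IRF9, had 0.28 in both genotypes, near the floor throughout, and a dimmer probe set had bounds of 0.54 and 0.89. Ifnb1, the interferon beta gene that IRF3 and IRF7 drive, read 7.23 with LPS and 5.07 without in knockout cells, and 7.10 with LPS and 4.66 without in wild-type cells, so it exceeded the floor on the LPS arrays and its bounds were 0.43 and 0.31. The interferon genes Ifna2, Ifna4 and Ifng stayed under the floor on all arrays.

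Genes known for interferon-stimulated response elements had the highest list median. In knockout cells 17 of 23 were higher and 0 lower (median 1.63), and in wild-type cells 16 of 23 were higher and 0 lower (median 1.40). The medians were 1.02 and 0.83 on the spike-in scale. Parp14, an interferon-induced ADP-ribosyltransferase gene, had 3.27 and 3.33, and its second probe set bounds of 2.08 and 1.78. Cmpk2, encoding a mitochondrial nucleotide kinase, had 1.63 and 2.04, with 0.84 and 1.16 on its second probe set. Rtp4, encoding a chaperone of receptor transport, had 1.97 and 1.40. Its second probe set, under the floor without LPS, gave bounds of 0.29 and 0.62. Those with the highest differences were Ccl5, higher with bounds of 6.56 in knockout and 6.46 in wild-type cells, Cxcl10 with 5.53 and 5.73, and Usp18 with 4.92 and 4.34. Ifit1, whose protein binds viral RNA, had 4.11 and 3.14. Of the 19 list genes with a promoter window, 8 (42.1%) held the ISRE core in the 250 bases, against 3.46% of all 27025 genes with a window. That share follows from how the list was made and is no result of the arrays.

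Of genes reported to need IRF1, 7 of 14 were higher and 0 lower in knockout cells (median 0.95), and 6 of 14 higher and 0 lower in wild-type cells (median 0.78). On the spike-in scale the medians were 0.34 and 0.33. Il12a, a cytokine subunit gene, had 3.24 and 3.32, and Irgm1, an interferon-inducible GTPase gene, 2.46 and 2.77. Gbp2, of another GTPase family, had 2.10 and 1.28, and Tap1, a peptide transporter gene, 1.30 and 1.29. The immunoproteasome genes Psmb8 and Psmb9 were not called, having -0.09 and -0.10 in knockout and -0.12 and -0.07 in wild-type cells. Between these lay Gbp3, with 0.85 and 0.34, and Tapbp, with 1.04 and 0.99, and 1.23 and 0.48 on its second probe set.

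Of the 9 measured partners of IRF4 and IRF8, 1 was higher and 1 lower in knockout cells (median 0.27), and 1 higher and 2 lower in wild-type cells (median 0.13), with medians of -0.34 and -0.43 on the spike-in scale. Such counts are near the shares of all genes and are no result about these partners. Batf, which encodes an AP-1 factor that pairs with IRF4, was the one called higher, with 2.21 in knockout and 2.26 in wild-type cells. Jun was lower in both, with -1.83 and -2.19, and Tcf4, a factor of plasmacytoid dendritic cells, passed 2-fold in wild-type cells alone (-0.72 in knockout cells and -1.68 in wild-type cells). Of 5 measured Tcf4 probe sets, a dimmer one passed 2-fold in knockout cells, and the least changed had -0.40 in knockout and -0.28 in wild-type cells. Spi1, encoding PU.1, the partner through which IRF8 reaches many sites, had 0.32 and 0.18, and Batf3 and Spib stayed under the floor. Of 12 measured myeloid genes reported as targets of IRF8 or its partners in lineage choice, 3 were higher and 1 lower in knockout cells (median 0.43), and 4 higher and 1 lower in wild-type cells (median 0.59), the medians being -0.18 and 0.02 on the spike-in scale. The 1 of 12 lower is near the share of all genes. Csf1r had 2.36 and 2.64, Il18 2.07 and 1.44, and Bcl2l1, a survival gene, 0.74 and 1.23. The lowest of 3 Bcl2l1 probe sets measured in wild-type cells gave a bound of 0.27. Ifi204 was at least 2.24-fold higher in knockout cells and 3.99-fold higher in wild-type cells. Klf4 was lower, with -4.35 and -4.11.

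Inhibitors and cofactors had 7 of 17 genes higher and 1 lower in knockout cells (median 0.70), and 8 of 17 higher and 1 lower in wild-type cells (median 0.71). On the spike-in scale the medians were 0.09 and 0.15. Tnip1 and Tnfaip3, feedback inhibitors of NF-κB signalling, had 4.15 and 2.84 in knockout cells and 4.25 and 2.99 in wild-type cells, ranking after Usp18 and before Socs3. Trim21, a ubiquitin ligase that acts on several IRF proteins, had 1.41 and 1.22, with 0.84 and 0.55 on its second probe set, and Socs1, a suppressor of JAK kinases, was higher with bounds of 2.11 and 1.40. Dusp1, a MAP kinase phosphatase gene, was the 1 lower, with -1.32 and -1.90. The IRF2-binding cofactor genes were not called: Irf2bp1 had 0.37 and 0.27, Irf2bp2 0.31 and 0.61, and Irf2bpl -0.67 in knockout cells and a bound of -0.19 in wild-type cells.

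**Figure D4:**
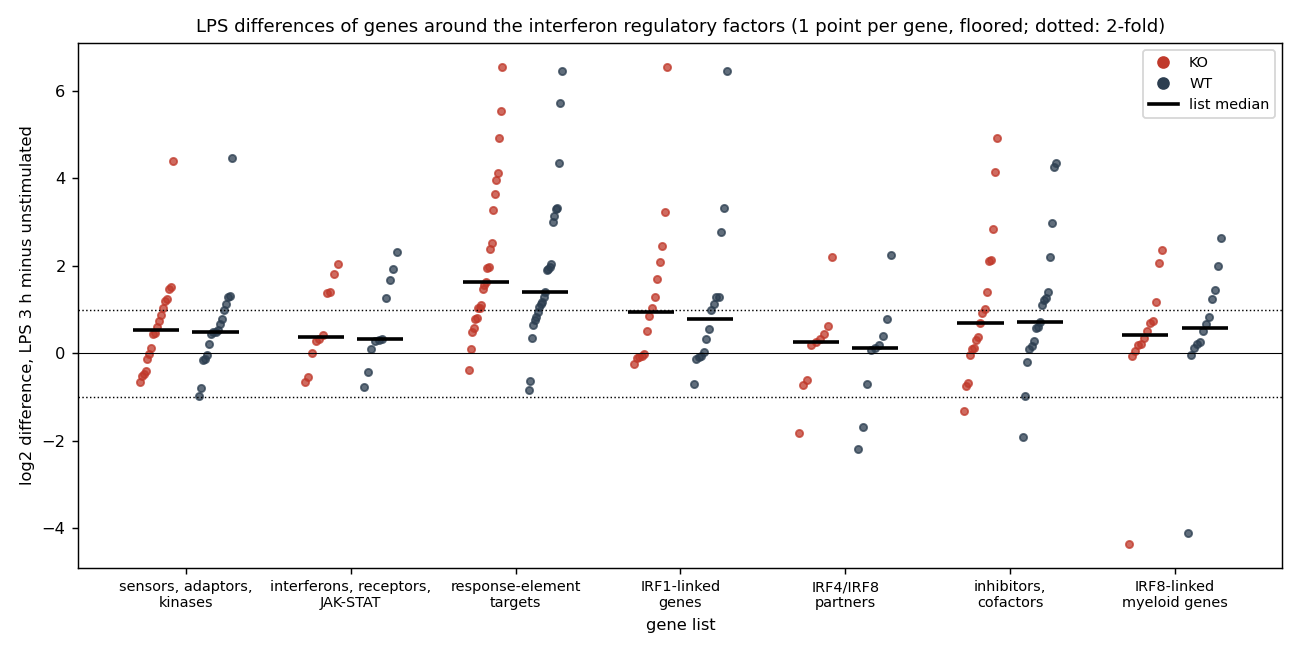
Log2 difference, LPS 3 h minus unstimulated (y axis), of each measured gene of the 7 lists (x axis), in knockout cells (red, left) and wild-type cells (dark, right); bars are list medians, dotted lines mark 2-fold, and values with an array under the floor are bounds. The response-element targets have the highest medians, 1.63 and 1.40, and the partners of IRF4 and IRF8 lie around 0 with a few genes on each side.

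Between genotypes these lists held almost no calls. With LPS, Ifi204, an interferon-inducible gene linked to IRF8, was the 1 of 97 measured list genes called, against 1.24% of all genes, so the count is near the background. It was lower in knockout cells at 7.96 against 9.36 in wild-type cells, a difference of -1.39 on its single probe set. Without LPS it stood at -0.56 with the knockout signal under the floor, and no list gene was called. These calls used the brightest probe set, and for Xaf1, of the response-element list, a dimmer one disagreed. That dimmer set was higher in knockout cells, with bounds of 2.71 with LPS and 1.68 without, its wild-type signals being under the floor. The brightest Xaf1 set had -0.46 and -0.49. Between the responses Herc6, an interferon-induced ubiquitin ligase gene, was the 1 called of 97, against 2.17% of all genes, with 1.34. Of its 4 probe sets 2 were measured for this difference, and they gave -0.42 and 1.34, so the call rests on the brighter of them.

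The members with a called difference were also set beside the genes whose pattern over the 4 arrays was nearest, by the root mean square distance of centred log2 signals among 8155 other genes above the floor throughout. Over 4 arrays many genes come close, and nearness says nothing of shared control. Nearest to Irf9 were Hip1r, an endocytic adaptor gene (distance 0.042), Sqle, of sterol synthesis (0.045), and Socs3, a suppressor of cytokine signalling (0.079), which had LPS differences of 2.14 in knockout and 2.20 in wild-type cells. Nearest to Irf7 were Rnf213 (0.033), Ghitm (0.035) and Crlf3 (0.036), and nearest to Irf5 were Dgat2 (0.021), Grk5 (0.036) and Gnptab (0.043). For Irf1 they were Hbp1 (0.025), Lrp10 (0.026) and Ube2a (0.034), and for Irf8 C1galt1c1 (0.036), Bod1l (0.046) and Pds5a (0.051). Socs3 was the one of these 15 genes that also stood on the 7 lists.

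The label of the cells was set against marker genes, since Irf4, Irf5 and Irf8 are also used by other leukocytes. All 11 matched neutrophil markers exceeded the floor, among them S100a8 and S100a9 with log2 signals of 15.42 or more on every array, and their summed signal was 336634 with LPS and 311569 without in knockout cells, and 298363 with LPS and 283792 without in wild-type cells. The brightest markers carry these sums, and others were lower after LPS. The receptor gene Cxcr2 had -1.11 in knockout cells, a 2-fold call, and -0.62 in wild-type cells, and the granule genes Mpo, Mmp8 and Elane had -0.81, -0.79 and -0.67 in knockout cells and -0.55, -0.60 and -0.58 in wild-type cells. Of 10 monocyte and macrophage markers 1 stayed under the floor, and 4 were higher and 2 lower after LPS in either genotype. Their summed signal was 44741 with LPS and 24743 without in knockout cells, and 47817 with LPS and 24585 without in wild-type cells. Among them Ccr2 and F13a1 were lower after LPS, as Irf8 was, with -3.54 and -1.79 in knockout and -3.88 and -1.93 in wild-type cells, while Csf1r and Adgre1 were higher.

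Of 12 dendritic cell markers 6 stayed under the floor, including Flt3, Xcr1 and Siglech. Of the 6 measured, 2 were higher and 0 lower after LPS in knockout cells, and 2 higher and 1 lower in wild-type cells. Itgax had 1.25 in knockout cells and a bound of 1.39 in wild-type cells. H2-Ab1 only just passed 2-fold in knockout cells and had 1.61 in wild-type cells. Tcf4 was the 1 lower, with -1.68 in wild-type cells. H2-Aa and Cd74 read between 8.60 and 9.50. The sum of all 12 was 3492 with LPS and 2758 without in knockout cells, and 3132 with LPS and 2647 without in wild-type cells. Of 9 B and plasma cell markers 4, including Pax5 and Cd79a, stayed under the floor, whereas Jchain read between 13.98 and 14.67. Their summed signal was 42438 with LPS and 47314 without in knockout cells, and 37779 with LPS and 40922 without in wild-type cells. Jchain and Xbp1, which read between 14.16 and 14.29, carry most of this sum. Of 7 T and NK cell markers 6 stayed under the floor. The sum of all 7 was 757 with LPS and 1598 without in knockout cells, and 927 with LPS and 2008 without in wild-type cells. Most of it came from Nkg7, the 1 measured, which had -1.44 in knockout and -1.42 in wild-type cells. Of 6 erythroid markers 1 stayed under the floor, and the sum was 1210 with LPS and 3759 without in knockout cells, and 1197 with LPS and 2295 without in wild-type cells. The part of other cell types in the values of Irf4, Irf5 and Irf8 was not tested.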

How the data were processed

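The values deposited by the authors for the 4 arrays, each of RNA pooled over 3 experiments, are log2 signals. The submitters' processing notes name MAS5 with no version. After undoing the logarithm the arrays had trimmed means (2% off each end) of 500.003 or 500.004. MAS5 scores each array alone and leaves dim probe sets scattered, and 298 to 428 probe sets per array are listed at 0. Of 45101 probe sets, 34958 had 1 symbol in the supplied platform annotation, 932 several and 9211 none, and the last 2 kinds were left out. Signals under the 60th percentile (log2 6.80) were set to it, and a gene was measured if either array exceeded it. Calls were at 2-fold. The call step was tested on simulated data, with changes well past 2-fold in genes well above the floor. That test does not cover members near 2-fold or near the floor. Python 3.11.15, numpy 2.4.6, pandas 2.3.3 and matplotlib 3.10.9 were used.

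Genes named were all members, their 3 nearest genes, and list members with the largest differences among those called, up to 4 each way. Others named, among them uncalled members, were chosen for their role beside an IRF, some after their values were seen. The members and lists were chosen with earlier results of these data known. Alternatives were quantile, median and spike-in scaling, floors at the 50th and 75th percentile or none, 2 probe-set summaries and a 1.5-fold call.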

Additional observations from a re-analysis of the deposited data

Results flagged for a closer look

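Herc6, an interferon-induced ubiquitin ligase gene, had LPS differences of opposite sign in the genotypes on its brightest probe set, 0.49 in knockout and -0.85 in wild-type cells. Another of its probe sets had -0.08 in knockout and 0.34 in wild-type cells, the signs the other way round. The difference between genotypes was not tested, since each genotype has 1 pair of arrays.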

How the results depend on the processing

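Genotype and response calls of the 8 genes stayed at 0 in all 9 alternatives. Of the 8 genes 3 were higher and 1 lower after LPS in knockout cells, and 4 higher and 1 lower in wild-type cells. Higher calls were 1 in knockout and 2 in wild-type cells on the spike-in scale. They were 1 and 1 when probe sets with names ending in _a_at, _s_at or _x_at were dropped. Irf1, Irf7 and Irf9 (_a_at) and Irf2 (_s_at) then had no probe set left. At 1.5-fold the higher calls were 6 in either genotype, and under median scaling 4 in knockout and 6 in wild-type cells. Lower calls were 2 in either genotype with a 50th-percentile floor or none, where Irf4 joined, 0 with a 75th-percentile floor, and 2 at 1.5-fold in wild-type cells. Among list genes, 41 higher and 3 lower in knockout cells became 26 and 13 on the spike-in scale, and 40 and 4 in wild-type cells became 24 and 12. Lower calls were 9 and 12 at 1.5-fold, and 6 in either genotype with no floor. Genotype calls of list genes with LPS, 0 higher and 1 lower, became 3 higher at 1.5-fold, 1 higher and 3 lower with no floor, 1 higher and 2 lower in the mean over probe sets, 1 higher on the spike-in scale and 0 lower with a 75th-percentile floor. Without LPS they were 0 and 0, then 1 and 4 at 1.5-fold, 1 and 6 with no floor, 1 higher in the mean and 1 lower with a 50th-percentile floor. Response differences, 1 higher and 0 lower, became 13 and 2 at 1.5-fold, 8 higher with no floor, 0 higher with a 75th-percentile floor, 0 and 1 in the mean and 1 lower under median scaling. Apart from the threshold and dropped probe sets the cause was not tested. No fit with a replicate block was made, since each group has 1 array of pooled RNA. Signal over background limits Irf4, Ifnb1 and Stat2.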
